A study of Mus musculus with 4 samples.

Results

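Beta-actin (Actb) and 4 regulators of actin turnover (Cfl1, Tmsb4x, Pfn2 and Enah) are described here by the places on their mRNAs that IMP2 contacted in embryonic mouse brain. The genes were taken by symbol from a deposited list of IMP2 binding clusters. They accounted for 15 of the 1828 distinct clusters and for 5 of the 761 listed genes. IMP2, encoded by Igf2bp2, belongs to the IGF2BP family of RNA-binding proteins. Its RNA was isolated by HITS-CLIP, in which ultraviolet light joins protein to RNA, the complex is pulled down with an antibody and the RNA left on it is sequenced. The 4 libraries came from Swiss Webster brains at embryonic day 14, and 2 carry the letter R and 2 the letter M in their titles. Antibodies to IMP2 raised in mouse and in rabbit are both named in the labels, which neither explain the letters nor say how many embryos went into a library.

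The 4 libraries share a single list, with no value for any library. All numbers below therefore lack replicate error, and no test between samples was possible. Whole brain holds many cell types. Of 15 marker genes checked, 7 were listed, among them the neuronal genes Dcx, Stmn2 and Gap43, the choroid plexus gene Ttr and the erythroid gene Hbb-y. The neuronal gene Tubb3 and the progenitor genes Sox2, Nes and Pax6 were not. A cluster can reflect more RNA or more binding, and these cannot be told apart without a measure of RNA level, which was not analysed here.

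Actin filaments grow at their barbed ends and are taken apart at their older ends, and the balance sets the shape and advance of a growth cone, the motile tip of an axon. Monomers are stored by thymosins, loaded for assembly by profilins, added at the tip with the help of Ena/VASP proteins and released again by cofilins. Beta-actin mRNA is a textbook case of a localized transcript. Its zipcode, a short element directly after the stop codon, is bound by IMP1, the sister protein of IMP2, and is needed for transport into axons and to the leading edge of cells.

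IMP2 clusters on the beta-actin transcript lay in the middle and at the far end of the 3' UTR, and none touched the stretch where the zipcode lies. The 3' UTR of Actb (RefSeq transcript on the minus strand, chr5:143664795-143665476, mm9) was 682 bases long in the deposited annotation. Counting from its first base after the coding sequence, the first cluster began after 228 bases and ended at base 266 (chr5:143665211-143665248), with a height of 43. Height is the authors' value for the largest number of overlapping sequence tags in a cluster, and its median over the list was 30. The next cluster covered bases 384 to 432 with a height of 34 (chr5:143665045-143665093). The third, at bases 512 to 568, was the tallest of the gene with 45 (chr5:143664909-143664965). The last reached from base 631 to base 674 with a height of 40 (chr5:143664803-143664846), which left 8 bases to the annotated end of the transcript.

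**Figure D1:**
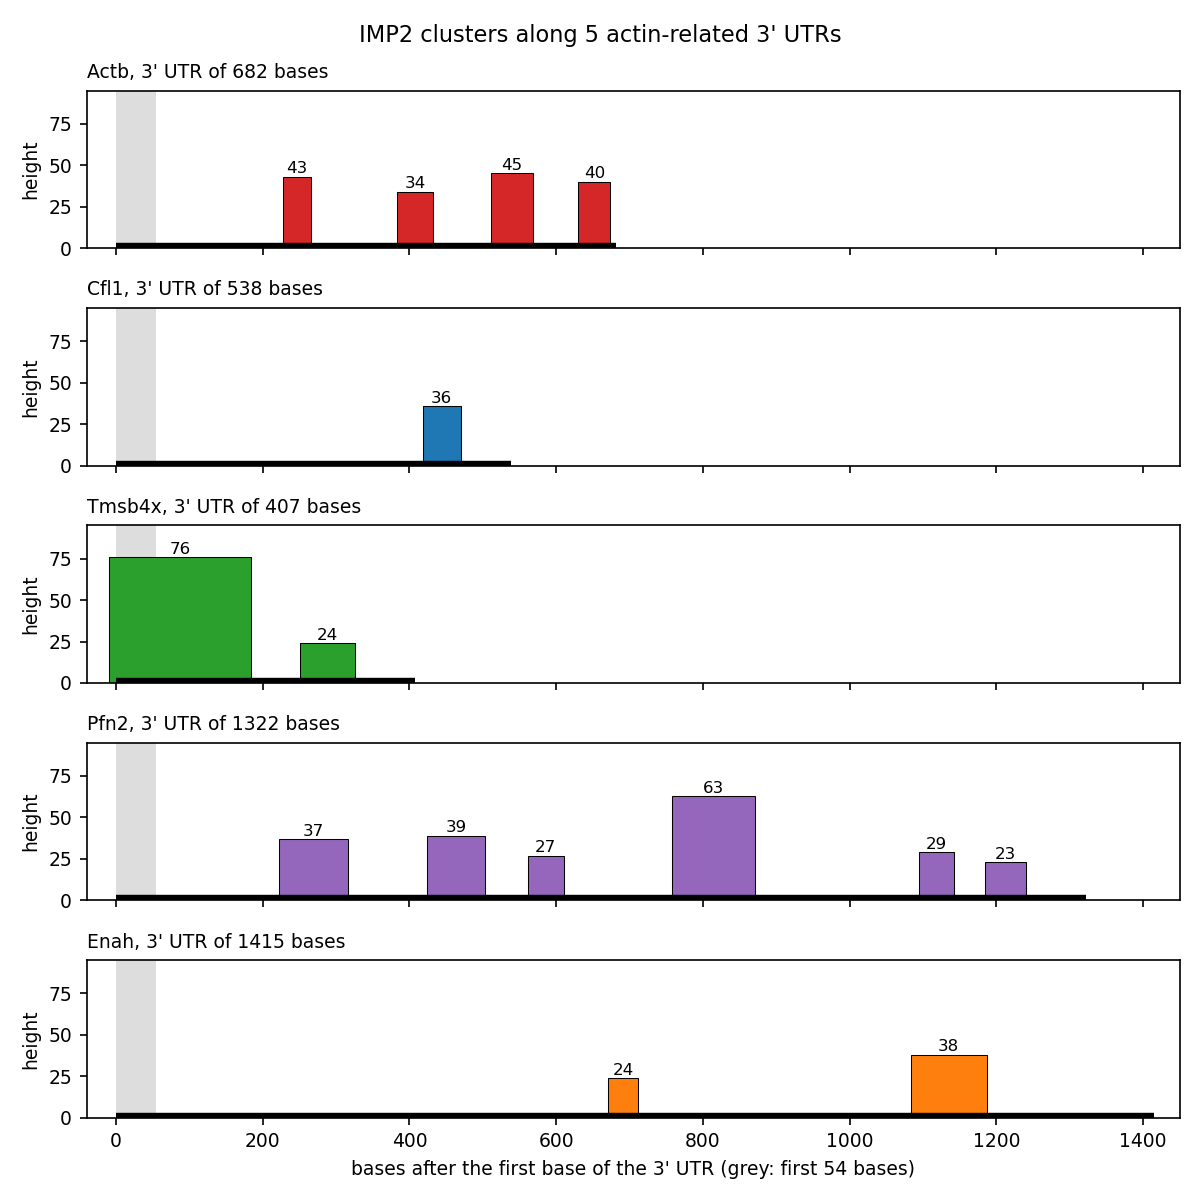
Clusters along the 3' UTRs of the 5 genes. The x axis gives bases after the start of the 3' UTR, the y axis the cluster height, read as overlapping tags. Each bar is 1 cluster at its true width. The black line is the 3' UTR and grey marks its first 54 bases. The 4 Actb clusters (34 to 45) begin 228 bases into the 3' UTR, while the tallest Tmsb4x cluster (76) covers its start.

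The zipcode window was set at the first 54 bases of the 3' UTR. It held 0 Actb clusters, and so did the first 100 bases. The lowest height in the list was 18 and the lowest fold 2, and the cut-offs behind them are not given. Weaker contact in the window might therefore be missing from it. Actb also has processed pseudogenes that could share tags, and the handling of such tags is not given. Its effect on the window was not tested. Among the 729 genes with a 3' UTR cluster, 59 (8.09%) had a cluster that touched the first 54 bases and 93 (12.8%) one that touched the first 100. Clusters could thus be listed so close to a stop codon, but in few genes. Of the 63 other genes with a 3' UTR between 0.8 and 1.25 times as long as that of Actb (548 to 852 bases), 9 had a cluster in the window, and their nearest cluster began a median of 318 bases after the stop codon. In 24 of the 63 it lay closer to the stop codon than in Actb. These genes were matched for length but not for number of clusters, and 41 of them had a single cluster. The 1 gene with as many clusters as Actb, Ppp2ca, and the 1 with more, Atp2a2, both began closer, at -2 and 59 bases. Whether the Actb distance is usual for a transcript with 4 clusters was not tested. The sources used here do not say whether the stop codon is counted with the coding sequence or with the 3' UTR, so these distances carry an uncertainty of 3 bases.

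The number of separate clusters set Actb apart from most transcripts with a 3' UTR of its size. Of the 63 genes of like length, 41 had a single cluster, 1 other had 4 clusters and 1 had more. The 4 Actb clusters were 38, 49, 57 and 44 bases wide in order from the stop codon, against a median of 53 over the list. They were separated by 117, 79 and 62 bases. Together they covered 188 bases, which is 27.6% of the 3' UTR, against a median of 9.30% (interquartile range 6.18 to 18.0) in the genes of like length, of which 9 were covered more. Heights varied little along the transcript. The tallest cluster was 1.32 times the lowest, and all 4 were above the median of the list.

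Tmsb4x, which encodes thymosin beta 4, the small protein that holds actin monomers in reserve, carried the tallest cluster of the group. It had a height of 76, the 20th highest of the 761 genes (ties share a rank), and was 193 bases wide (chrX:163645249-163645441, minus strand). The cluster began 9 bases upstream of the 3' UTR interval and ran to base 184, so it crossed the border between coding sequence and 3' UTR and covered the whole of the first 54 bases. Across the list, 17 clusters in 17 genes crossed that border, and the Tmsb4x cluster was the third tallest of them. The list gives an overlap with a region only where it reaches 10 bases, and the Tmsb4x cluster accordingly appears there as 3' UTR alone. The other cluster of Tmsb4x had a height of 24, lay at bases 252 to 326 (chrX:163645107-163645181) and ended 81 bases before the end of the transcript. Both together covered 63.6% of a 3' UTR of 407 bases, the largest share of the 5 genes at the deposited widths. With each cluster cut to its central 50 bases the share was 24.6%, below that of Actb (26.5%). None of the 30 genes of like length (331 to 507 bases) was covered more or had a taller cluster, and their medians were 13.3% (interquartile range 9.60 to 19.8) and a height of 33.5.

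Pfn2, which encodes the profilin found mainly in neurons, had the most clusters of the 5 genes. Its 6 clusters were spread over a 3' UTR of 1322 bases on chromosome 3 (chr3:57645817-57647138, minus strand). In order from the stop codon their heights were 37, 39, 27, 63, 29 and 23. The tallest (chr3:57646268-57646380) was 113 bases wide and lay near the middle of the 3' UTR, at bases 759 to 871, and the lowest ended 81 bases before the transcript end. Heights therefore peaked inside the 3' UTR and were lower on both sides, with a 2.74-fold range. The first cluster began after 222 bases (chr3:57646823-57646916), so Pfn2, like most genes with a 3' UTR cluster, had none in its first 54 bases. Gaps between clusters ranged from 42 to 223 bases, and 33.3% of the 3' UTR was covered. Of 133 genes of like length (1060 to 1647 bases), 4 had more clusters and 7 had a taller one. Their medians were 1 cluster and 5.12% covered.

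Cfl1 and Enah had the lowest maxima of the 5 genes, 36 and 38. Cfl1 encodes cofilin 1, which severs and disassembles older filaments. Its only cluster had a height of 36 and a width of 52 bases (chr19:5493912-5493963, plus strand). It lay at bases 419 to 470 of a 3' UTR of 538 bases and ended 68 bases before the transcript end. The cluster covered 9.67% of the 3' UTR, close to the median of 10.6% in 46 genes of like length, of which 33 also had a single cluster and 14 had a taller one. Enah encodes Mena, which promotes filament elongation at barbed ends and in the filopodia of growth cones. Its 4 annotated transcripts share a 3' UTR interval of 1415 bases and the same pair of clusters. That nearer the stop codon had a height of 24 at bases 671 to 712 (chr1:183835279-183835320, minus strand). The other had a height of 38 at bases 1084 to 1187 (chr1:183834804-183834907) and stood 371 bases further on. They covered 10.3% of the interval, against a median of 4.56% (interquartile range 3.00 to 8.81) in 143 genes of like length, of which 33 had more clusters, 24 had the same number and 35 had a taller one.

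**Figure D2:**
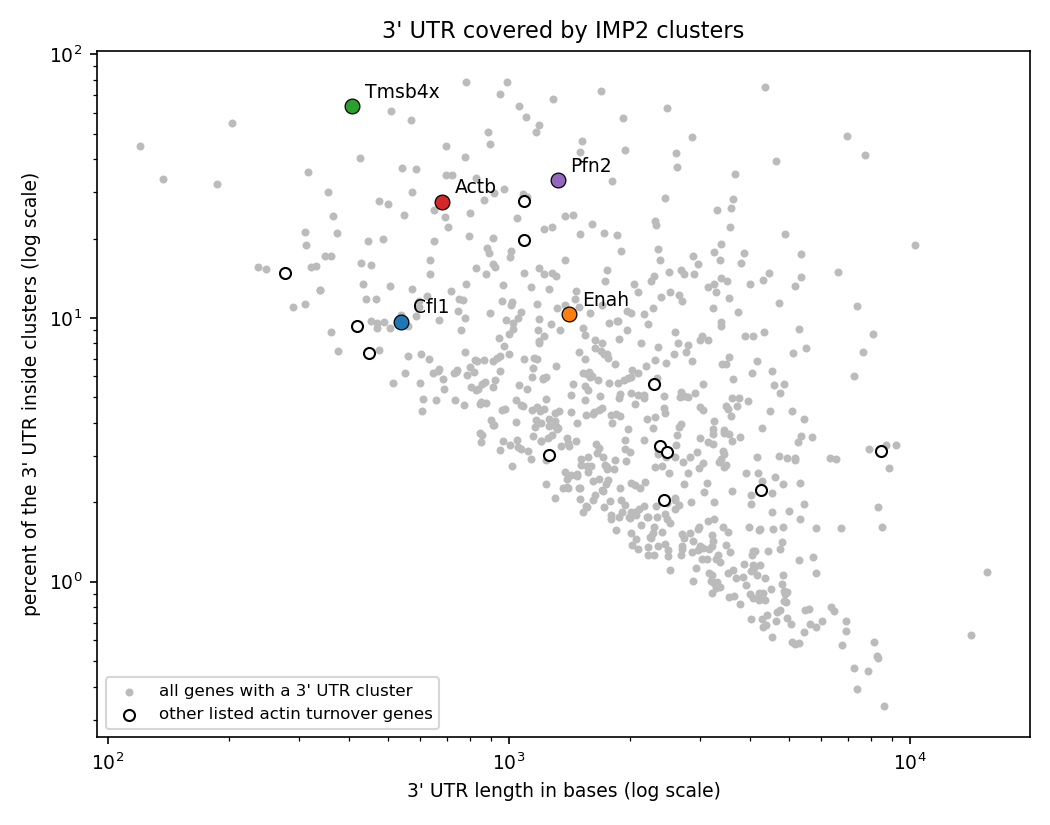
Share of the 3' UTR inside clusters (y axis, percent, log scale) against 3' UTR length (x axis, bases, log scale), with 1 point per gene. Coloured points are the 5 genes, open points the other 12 listed actin turnover genes and grey points all genes with a 3' UTR cluster. Tmsb4x (63.6%), Pfn2 (33.3%), Actb (27.6%) and Enah (10.3%) lie above the upper quartile of genes of like length, and Cfl1 (9.67%) just below the median.

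All 15 clusters had their midpoint in a 3' UTR, as did 94.1% of the whole list. The 3' UTRs of Tmsb4x, Cfl1 and Actb were short, with 3.16%, 6.17% and 10.2% of genes having a shorter one, and Pfn2 (32.0%) and Enah (34.2%) also lay below the list's median of 1998 bases. A listed gene has at least 1 cluster by definition, so the covered share falls with length, and the genes of like length are the fairer comparison. Toward the other end of the transcript, Actb, Cfl1, Tmsb4x and Pfn2 each had a cluster that ended less than 100 bases before the annotated 3' end (8, 68, 81 and 81 bases), and Enah came no closer than 228. Over all genes with a 3' UTR cluster, 100 (13.7%) had a cluster so close to the end. In the genes of like length the share was 22.2% for Actb, 28.3% for Cfl1, 20.0% for Tmsb4x and 14.3% for Pfn2. This distance was chosen after the positions had been seen and is a description.

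The authors also gave a fold of each height, whose reference level the file does not define. The folds put the 5 genes in another order than the heights did. Cfl1 had the highest fold with 9.17, although its height was the lowest of the 5 maxima. The Actb clusters followed with 8.67, 7.96, 7.19 and 6.24, each above the median fold of 5.4. For Pfn2 the folds ran from 3.08 to 7.58, and only the tallest cluster passed the median. Enah had folds of 3.95 and 5.35. Tmsb4x had a fold of 5.91 at its tall cluster and of 2.07 at the lower one, just above the smallest fold in the list. In all, 10 of the 15 clusters were taller than the median height (46.9% of all clusters were) and 7 had a fold above the median (49.9% of all clusters).

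Height divided by fold is given here as a plain quotient of the deposited values, since what it stands for is not defined. It was 12.9 for the tall Tmsb4x cluster, the highest of all 1828 clusters, and 11.6 for the other, the 6th highest. In Pfn2 it ranged from 7.25 to 8.68 and in Enah from 6.08 to 7.10. The Actb clusters had 5.19 to 5.56 and Cfl1 had 3.93, both under the list's median of 5.96. Within a transcript the highest quotient was 1.07 times the lowest in Actb, 1.11 in Tmsb4x, 1.17 in Enah and 1.20 in Pfn2. The median was 1.28 (interquartile range 1.14 to 1.53) over the 342 genes with at least 2 clusters. These genes were not matched for number of clusters, on which such a ratio depends, and Tmsb4x and Enah have only 2 each. By height, 97.1% of listed genes had a lower maximum than Tmsb4x, and by fold 39.9%. For Cfl1 the same shares were 61.9% and 81.7%. For Enah they were 67.7% and 31.1%, and for Pfn2 93.3% and 66.8%. Actb stood in about the same place on both scales, with 80.9% and 78.1% of genes below it.

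**Figure D3:**
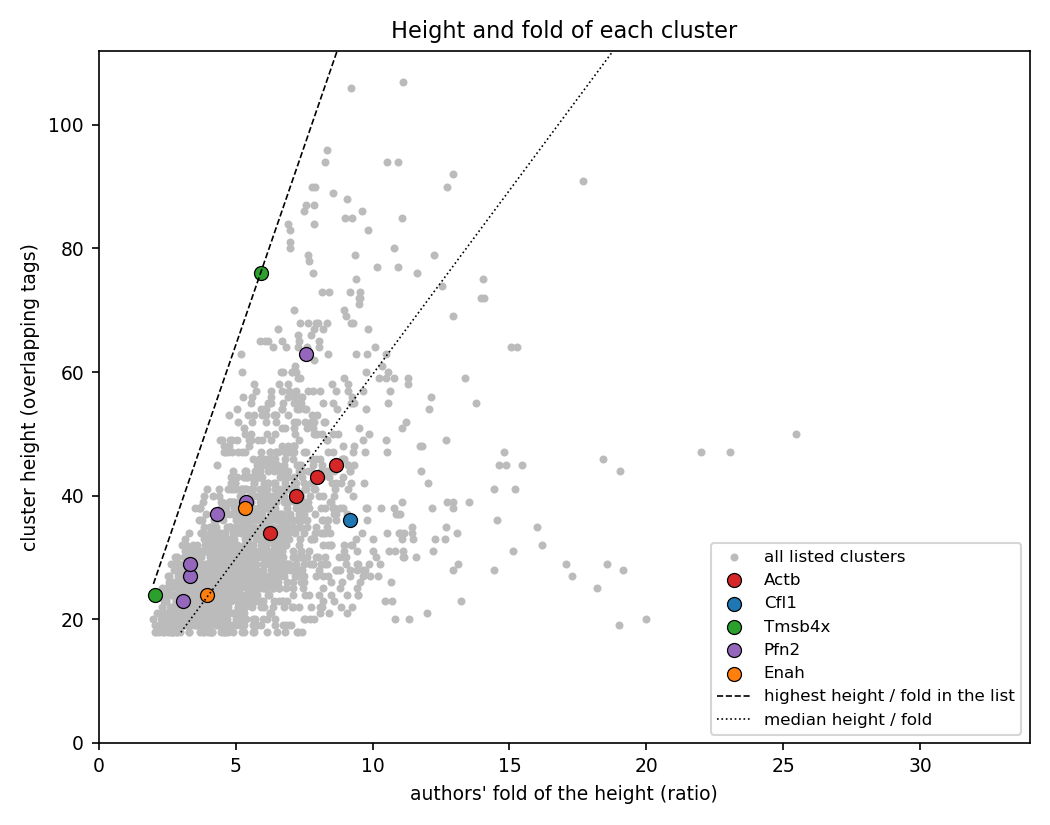
Cluster height, read as overlapping tags (y axis), against the authors' fold of the height (x axis, read as a ratio). Each point is 1 cluster, coloured for the 5 genes and grey for the rest of the list; the dashed and dotted lines mark the highest (12.9) and median (5.96) ratio of height to fold. The Tmsb4x cluster of height 76 sits on the dashed line and the Cfl1 cluster (height 36, fold 9.17) to the right of the dotted line.

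Beyond the 5 genes, transcripts for several steps of actin turnover carried clusters. Of 107 genes assigned to 10 roles, 17 were listed (15.9%), against 3.47% of all 21900 protein-coding genes. Without the 5 genes, which were chosen because they were listed, 12 of 102 (11.8%) were. Of these 102 genes, 6 carried at least 2 clusters (1.56% of all protein-coding genes did). A cluster taller than the median height was found in 5 (1.87%). Among listed genes alone, 6 of the 12 had at least 2 clusters, against 342 of 761. For a cluster taller than the median height it was 5 of the 12, against 409 of 761. Both counts therefore add little to the difference in genes listed. With the 5 genes counted, 10 of 107 had at least 2 clusters and 10 of 107 a cluster taller than the median. The highest clusters of the 12 other genes had a lower median height than those of the 5, at 26.5 (range 20 to 56) against 45 (range 36 to 76) and 31 over all listed genes. A single cluster was held by 6 of these 12 genes, near the share over all listed genes (419 of 761, 55.1%). The roles were chosen with earlier results of these data known, so these counts are descriptions.

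Some relatives of the 5 genes carried clusters and others did not. Only 3.47% of all protein-coding genes were listed, so a relative without a cluster is the usual case. RNA levels of the relatives were not analysed. Of the 6 actin genes only Actb was listed. The cytoplasmic gamma-actin gene Actg1, whose protein is nearly identical, had no cluster. Among 12 genes for monomer-binding proteins, Pfn1, the widely expressed profilin, joined Tmsb4x and Pfn2. Its single cluster had a height of 25 and lay 68 bases into a 3' UTR of 277 bases (chr11:70465517-70465557). The thymosin gene Tmsb10 and the cyclase-associated protein genes Cap1 and Cap2 had none. The cofilin family was complete: Cfl2 had clusters of 23 and 35, and Dstn, which encodes the cofilin relative destrin, had 3 of 25, 40 and 34 in order from the stop codon. The maxima of Cfl1 (36), Cfl2 (35) and Dstn (40) were thus close. None of the 8 genes for kinases and phosphatases that act on cofilin was listed. With 3.47% of all protein-coding genes listed, an absence from so small a group says little. Of the Ena/VASP group, Evl had a single cluster of 24 that ended 33 bases before the transcript end, and Vasp had none.

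Genes for filament nucleation and branching were listed at lower heights, with 1 exception. Actr2, a core subunit of the Arp2/3 complex that branches filaments, had a cluster of height 56 and fold 12.14 (chr11:19963703-19963749). This was the highest fold of the 17 genes. The other Actr2 cluster had a height of 20 and a fold of 3.02 and ended 90 bases before the 3' UTR end. Arpc2 (26) and Arpc5 (21), further subunits, had a single cluster each, and that of Arpc2 began 23 bases into its 3' UTR. Among the activators of the complex, Cyfip2 (27) and Abi2 (26) of the WAVE complex were listed, and among 18 formins and other nucleators only Daam1 (20). Tmod2, which caps pointed ends in neurons, had 5 clusters between 19 and 33 over a 3' UTR of 8467 bases.

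Fscn1, the gene for fascin, which bundles the filaments of filopodia, had as many clusters as Actb and about the same share of its 3' UTR covered. It is a neighbour of Actb on chromosome 5, 53630 bases away on the opposite strand. Its 4 clusters had heights of 24, 43, 27 and 44 in order from the stop codon, more uneven than the 34 to 45 of Actb, covered 27.7% of a longer 3' UTR of 1091 bases and left 14 bases to the transcript end (last cluster chr5:143734733-143734854). The first of them began after 132 bases. Fscn1 thus had no cluster in the first 54 bases, where 8.09% of all genes with a 3' UTR cluster had one.

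**Figure D4:**
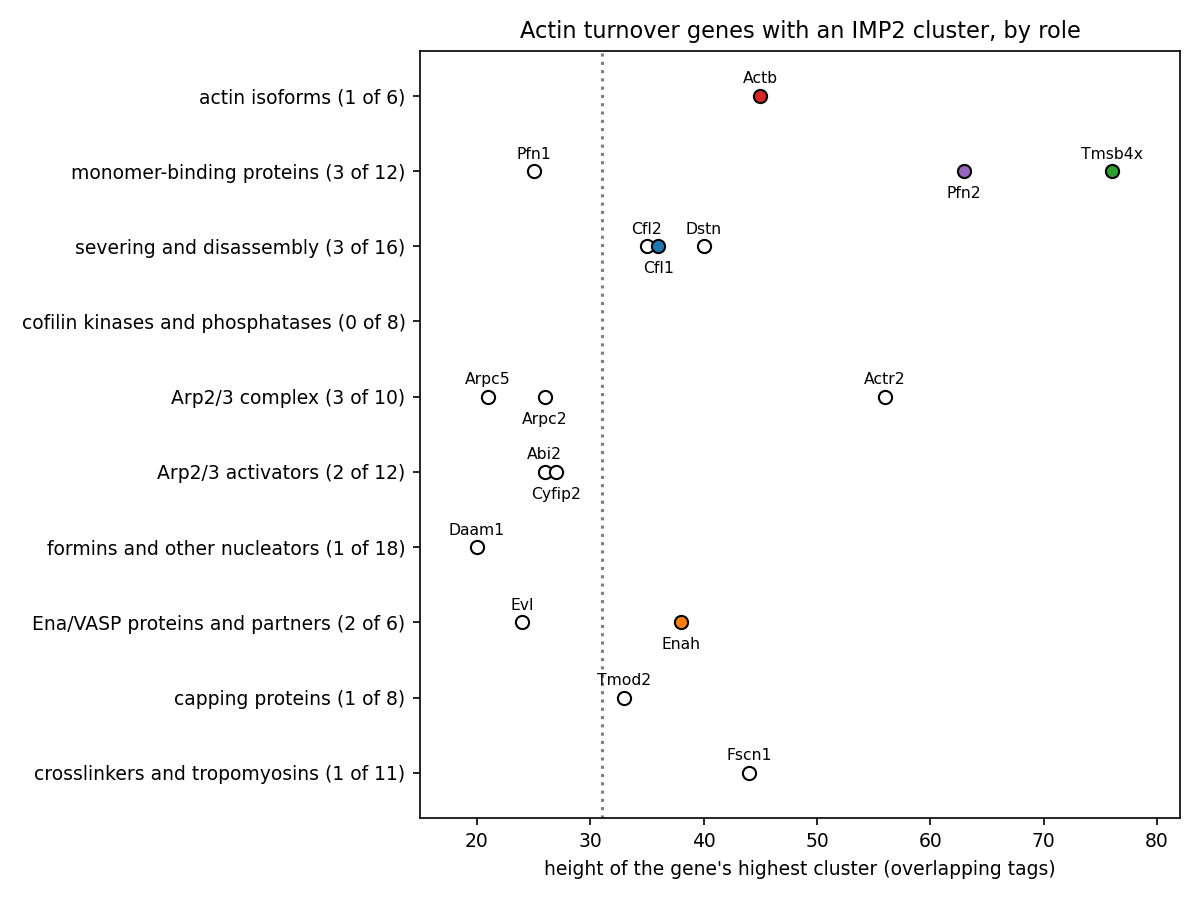
Height of the highest cluster (x axis, read as overlapping tags) of each listed gene of the 10 actin turnover roles. Rows are roles, with the number listed of all genes in the role. Coloured points are the 5 genes and the dotted line is the median over all listed genes (31). Tmsb4x (76), Pfn2 (63) and Actr2 (56) stand highest, and Daam1 (20) and Arpc5 (21) lowest.

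The listed genes nearest in profile to each of the 5 were found by their likeness, which was the distance over the highest height, the highest fold, the number of clusters and the 3' UTR length, each on a log2 scale and divided by its SD over listed genes. For Actb the nearest were Paics (distance 0.569), a purine synthesis enzyme gene with 3 clusters and a maximum of 45, then Cited2 (0.641) and Selenof (0.679), also with 3 clusters and with maxima of 48. For Cfl1 they were Calr (0.440), Fn1 (0.638) and Sparcl1 (0.654), each with a single cluster. Pfn2 was nearest to Matr3 (0.426), Mest (0.474) and Sptbn1 (0.602), and Enah to Sfpq (0.390), Rab11a (0.402) and Olfm1 (0.479). Tmsb4x had the most distant neighbours, Cpe (1.11), 6330403K07Rik (1.27) and Jpt1 (1.29), whose maxima were 57, 54 and 55. Of the 3 genes nearest to Actb, none had a cluster in the first 54 bases, where 8.09% of all genes with a 3' UTR cluster had one. Their first clusters began 252, 329 and 71 bases after the stop codon in the order given.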

How the data were processed

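Clusters came from 1 list annotated to RefSeq transcripts. Per the submitters' processing notes, tools included Bowtie and FastQC (no versions) and the genome build was mm9. The sources used here do not give the peak caller, its cut-offs, the handling of tags that match several places, or whether the libraries were pooled. Actb, Cfl1 and Tmsb4x have processed pseudogenes that could share tags. Height was read here as a pileup signal in whole tags and the deposited fold as a ratio. The column names alone define neither. Tags per library are unknown, so the precision of a height is unknown, and PCR duplicates could not be checked.

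The 2865 lines were reduced to distinct clusters by chromosome, start, end and strand. Starts were made 1-based. Transcripts were matched to a RefSeq table of GRCm38 by accession (1088) or name (11), for names and the protein-coding set only. Regions were assigned by midpoint. A gene's 3' UTR was its longest deposited interval; in the 5 genes it reached the transcript end. Genes of like length had 0.8 to 1.25 times that length. The text names the 5 genes, every listed gene of the 10 roles and the 3 most similar genes per member; others were chosen after their values were seen. A further role of the gene lists is not reported here. The members and lists were chosen with earlier results of these data known. Interval steps were tested on simulated data. Python 3.11.15 and pandas 2.3.3 were used. No sequence of the clusters was used here.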

Additional observations from a re-analysis of the deposited data

How the results depend on the processing

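No paired analysis was possible because no value belongs to a single library, and for the same reason no library could be left out. Joining clusters up to 50 bases apart left 14 of the 15 clusters, with 5 in Pfn2. Without joining, 7 of the 15 had a fold above the median. With only taller clusters, or genes with at least 2 clusters, 10 of the 17 listed actin turnover genes remained. The percent of genes with a lower maximum changed with the measure. By fold it was 81.7 for Cfl1, 39.9 for Tmsb4x, 66.8 for Pfn2 and 31.1 for Enah. By the median height of a gene's clusters it was 90.3 for Actb, 79.1 for Cfl1, 69.8 for Pfn2 and 62.4 for Enah. Among genes with a single cluster, or with at least 2, ranked apart after seeing the data, it was 64.9 for Actb, 82.3 for Cfl1, 93.9 for Tmsb4x, 86.5 for Pfn2 and 44.4 for Enah. With clusters cut to their central 50 bases the covered share was 24.6% for Tmsb4x, 22.5% for Pfn2 and 6.50% for Enah, since wide clusters lose most. Taken at the nearest edge, the first cluster stood 228 bases after the stop codon in Actb (247 at its midpoint), 418 in Cfl1 (444), 222 in Pfn2 (269) and 670 in Enah (691), and at -9 in Tmsb4x (87.5), whose cluster crosses the border. The shortest 3' UTR interval gave the same values, because each of the 5 genes has a single interval. Unknown depth limits every height.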
